A study of Homo sapiens with 6 samples.

Results

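The receptor tyrosine kinases AXL and MET were examined together with their closest relatives, ligands and activating enzymes in the human colorectal cancer line SW480 and in M5, cells that were selected from it in vivo for their greater ability to reach the liver. Members were 10 genes fixed by name, out of 19775 genes with a probe set of a single symbol: the TAM receptors AXL, TYRO3 and MERTK, their ligands GAS6 and PROS1, the MET family receptors MET and MST1R, the proteases HGFAC and ST14, and the protease inhibitor SPINT1. They are measured by 21 of the 54675 probe sets of the array, each being a set of short probes for 1 transcript or group of transcripts. Each population had 3 arrays of total RNA, called biological replicates in the labels, and both were grown in the same serum-supplemented medium with antibiotics and no added agent. The labels do not say whether M5 is a clone, how many rounds of selection it went through, or whether replicates were separate cultures, so p-values measure only the spread between these arrays. The number of arrays limits the precision.

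TAM receptors sit at the cell surface and are switched on by GAS6 or protein S (the PROS1 product), vitamin K-dependent proteins that bridge the receptor to phosphatidylserine on dying cells and vesicles. AXL binds GAS6, and in carcinomas it is known for its link to invasion and drug resistance. MET is the receptor of hepatocyte growth factor (HGF) and MST1R, also called RON, that of macrophage-stimulating protein (the MST1 product). Both ligands are secreted as inactive precursors that serine proteases such as HGFAC and matriptase (the ST14 product) cut, and the SPINT1 product, HAI-1, blocks those proteases on epithelial cells.

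The 2% trimmed mean of the deposited signals ran from 21.1 to 87.1 over the arrays, with replicate 1 of each population the dimmest, and signals are therefore given after quantile normalisation. M5 replicates 2 and 3 correlated at 0.994 over bright probe sets, against 0.897 to 0.958 for the other pairs of arrays, so each mean ± SD takes them together as 1 sample (n = 2 for M5). The main limma fit counts them as separate arrays, so its standard errors and intervals may be too narrow. The deposited signal of a control for 18S RNA read 2823.9 to 4163.4 on M5 replicate 1 and SW480 replicates 1 and 2, but 96.3 to 234.1 on the other arrays. Of 12 colorectal epithelial markers, 9 passed the filter on low signals; the transcription factor genes CDX1 and CDX2 and the surface antigen gene GPA33 did not. The summed signal of all 12 was 9143 to 12909 in SW480 and 11367 to 12212 in M5, of which KRT18 alone gave 3998 to 5129 and 4523 to 4881. The summed signals of 11 macrophage and leukocyte, 10 fibroblast, 9 endothelial and 14 hepatocyte markers on the array were 60.3 to 211, 256 to 409, 49.3 to 65.1 and 151 to 409 in SW480, and 117 to 274, 208 to 264, 43.4 to 81.0 and 146 to 905 in M5. None of the markers kept for testing passed between the populations. In bulk RNA, fewer cells of a type and less RNA per cell cannot be told apart.

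AXL differed most among the members and was higher on every M5 array, by both of its probe sets, but the difference did not pass the adjusted threshold of 0.05. MET gave opposite directions by different probe sets, as did TYRO3 with smaller fold changes. SPINT1 was lower on every M5 array by its brighter probe set, and neither TYRO3, MERTK, PROS1, MST1R nor ST14 separated the populations. Of the 21 probe sets, 18 passed the filter on low signals, covering 9 of the 10 genes. In limma, 0 of the 18 passed the adjusted threshold in either direction, against 0.0397% of 32768 probe sets called higher in M5 and 0.0336% called lower. At an unadjusted p under 0.05, limma gave 3 of the 18 higher and 1 lower, where 4.80% and 5.46% of all kept probe sets were. The adjusted count was also 0 in limma without the intensity trend. Every M5 array lay above every SW480 array for 3 of the 18 and below for 1, against 7.19% and 7.93% of all kept probe sets. Those are the 2 AXL probe sets and 1 of MET above, and 1 of SPINT1 below. The median log2 fold change was -0.08 over the 18, and -0.01 over all kept probe sets.

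**Figure D1:**
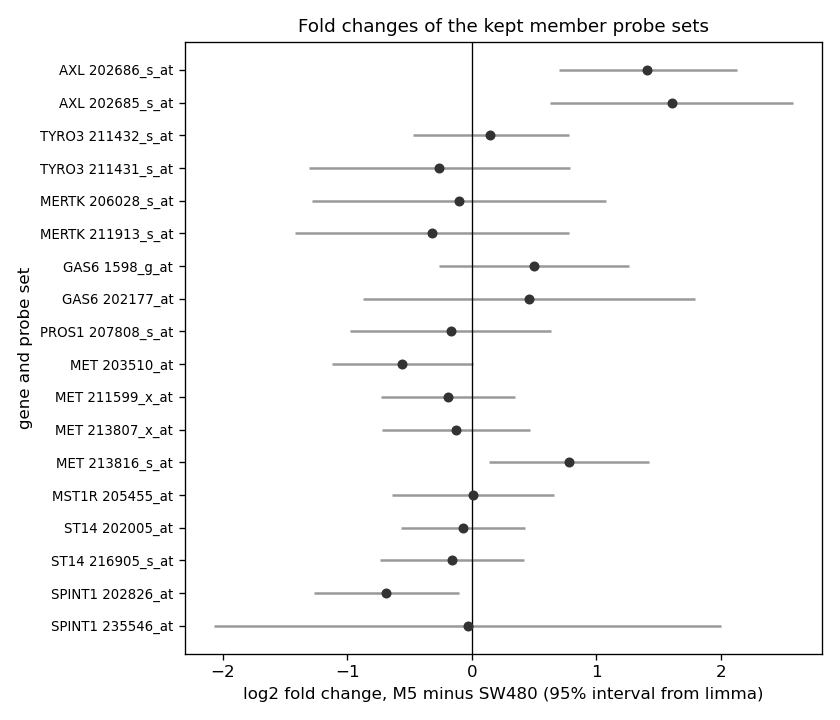
Log2 fold change of M5 over SW480 (horizontal axis, on the scale of log2 of signal plus pseudocount) for the 18 member probe sets that passed the filter, with bars for the 95% interval from limma over 6 arrays. Both AXL intervals lie above 0, as does that of MET 213816_s_at, that of SPINT1 202826_at lies below 0, and the other 14 include 0.

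The brighter AXL probe set, 202686_s_at, had signals of 221, 85.2 and 103 on SW480 replicates 1, 2 and 3, and of 396, 320 and 297 on M5 replicates 1, 2 and 3. All M5 arrays were above all SW480 arrays, and SW480 replicate 1, the dimmest array, came closest to M5. The SW480 mean was 136 ± 73.5 (SD, n = 3) and the M5 mean 352 ± 62.1 (SD, n = 2). The log2 fold change was 1.41 (SE 0.33, 95% interval 0.70 to 2.13), a 2.66-fold difference with a limma adjusted p of 0.242, and its p was the 151st smallest of the 32768.

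The other AXL probe set, 202685_s_at, had signals of 8.32, 20.2 and 7.27 on the SW480 arrays and of 38.5, 40.9 and 30.8 on the M5 arrays, in replicate order. Again the groups did not overlap, although here SW480 replicate 2 was nearest to M5. Its log2 fold change was 1.61 (SE 0.44, 95% interval 0.63 to 2.58, limma adjusted p = 0.304). Across the 6 arrays the probe sets correlated at r = 0.64, as a description, since they share their arrays.

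The AXL difference had the same sign in each subset of arrays. For 202686_s_at it was 0.84 on the log2 scale between the replicates numbered 1 and 1.70 between the brighter arrays, and 1.52 and 1.56 among arrays with a high and with a low 18S signal. For 202685_s_at these values were 2.0, 1.41, 1.44 and 2.05. As groups that do not overlap fix these signs, they add no support. Among the 6 fits that each left out 1 array, 202686_s_at was called only without SW480 replicate 1. There its limma adjusted p was 0.0101 and its log2 fold change 1.83. Over these 6 fits the limma adjusted p ran from 0.0101 to 0.691. Without SW480 replicate 1, limma called 0.360% of all kept probe sets higher in M5 and 0.168% lower. With the dimmest arrays as a block the adjusted p was 0.0434, where 0.146% were called higher and 0.0977% lower, and with M5 replicates 2 and 3 averaged it was 0.7. The second AXL probe set passed in none of the 18 alternative settings. AXL is also made by macrophages and fibroblasts. The leukocyte gene PTPRC and the monocyte gene CD14 were under the filter, with signals of at most 11.3 and 5.90 in SW480 and of at most 5.45 and 6.17 in M5. The summed leukocyte signal reached 211 in SW480 and 274 in M5, with LYZ, the lysozyme gene, at 1.22 to 73.5 and 63.9 to 161. The kept leukocyte markers also went both ways. Their log2 fold changes were -0.57 (CSF1R), -0.26 (AIF1), 0.32 (FCER1G), 0.40 (ITGAM), 0.62 (CD3E), 0.87 (MS4A1) and 2.72 (LYZ). The summed fibroblast signal was 256 to 409 in SW480 and 208 to 264 in M5, with COL3A1 at 104 to 223 and 44.9 to 81.2. Log2 fold changes of the kept fibroblast markers went both ways, from -1.31 (COL3A1) to 0.63 (DCN). The part of other cell types in the AXL difference was not tested.

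TYRO3, the TAM receptor best known from the nervous system, had signals of 64.3, 58.4 and 43.4 on the SW480 arrays and of 61.2, 62.6 and 59.0 on the M5 arrays by 211432_s_at. The M5 arrays lay inside the SW480 range, and the log2 fold change was 0.15 (95% interval -0.47 to 0.78, limma adjusted p = 0.894). Its dimmer probe set, 211431_s_at, gave 14.8, 19.3 and 17.1 in SW480 and 9.07, 26.0 and 11.1 in M5, a log2 fold change of -0.26 (95% interval -1.31 to 0.79, limma adjusted p = 0.892). Of the 2 intervals, that of 211432_s_at leaves out a 2-fold difference either way, a statement for this probe set only.

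MERTK, the TAM receptor through which macrophages and retinal pigment cells take up dying cells or their parts, was dim on all arrays. By 206028_s_at its signals were 6.70, 24.6 and 27.7 in SW480 and 12.4, 20.5 and 15.2 in M5, and by 211913_s_at 12.2, 20.4 and 8.77 in SW480 and 9.80, 12.9 and 8.15 in M5. The groups overlapped for each, with log2 fold changes of -0.10 (95% interval -1.28 to 1.08) and -0.32 (-1.42 to 0.78) and limma adjusted p of 0.970 and 0.865. The third probe set, 211912_at, did not pass the filter, with signals of 0.483 to 8.63 in SW480 and 1.83 to 16.2 in M5. Both intervals include a 2-fold lower level in M5, and that of 206028_s_at also includes a 2-fold higher one.

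GAS6, the shared ligand of the TAM receptors, had signals of 119, 48.9 and 50.7 on the SW480 arrays and of 95.2, 99.1 and 91.0 on the M5 arrays by 1598_g_at. The M5 arrays were close together and above SW480 replicates 2 and 3, while SW480 replicate 1 was the highest of all. The log2 fold change was 0.50 (SE 0.35, 95% interval -0.26 to 1.26, limma adjusted p = 0.659). It was -0.31 between the replicates numbered 1 and 0.91 between the brighter arrays. The second probe set, 202177_at, gave 5.52, 19.5 and 23.3 in SW480 and 9.07, 35.2 and 23.5 in M5, with a log2 fold change of 0.46 (95% interval -0.87 to 1.79, limma adjusted p = 0.837). There the replicates numbered 1 were the lowest of their groups, unlike by 1598_g_at, and the probe sets correlated at r = -0.42 over the 6 arrays.

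PROS1, which encodes the anticoagulant protein S, a ligand of TYRO3 and MERTK, had signals of 45.8, 87.4 and 108 in SW480 and of 46.0, 82.1 and 80.4 in M5. Both dimmest arrays read low and nearly alike, and the groups overlapped. The log2 fold change was -0.17 (95% interval -0.98 to 0.64, limma adjusted p = 0.911). Protein S is also a liver product. Of the 14 hepatocyte markers 9 were kept and 0 passed in limma, with a summed signal of 151 to 409 in SW480 and 146 to 905 in M5. TTR was at 1.43 to 5.17 in SW480 and 5.68 to 196 in M5, FGB at 1.67 to 11 and 9.33 to 202, FGG at 3.58 to 11.2 and 13.3 to 237, and HPX at 3.95 to 20.6 and 19.9 to 47.6. For the other kept markers, log2 fold changes were -0.76 (CYP3A4), -0.47 (SERPINA1), -0.33 (TAT), 0.02 (APOA1) and 0.62 (APOA2), so the list had no common direction. The albumin gene ALB was under the filter, at 0.667 to 7.38 in SW480 and 2.55 to 11.4 in M5. The part of these markers in the PROS1 values was not tested.

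**Figure D2:**
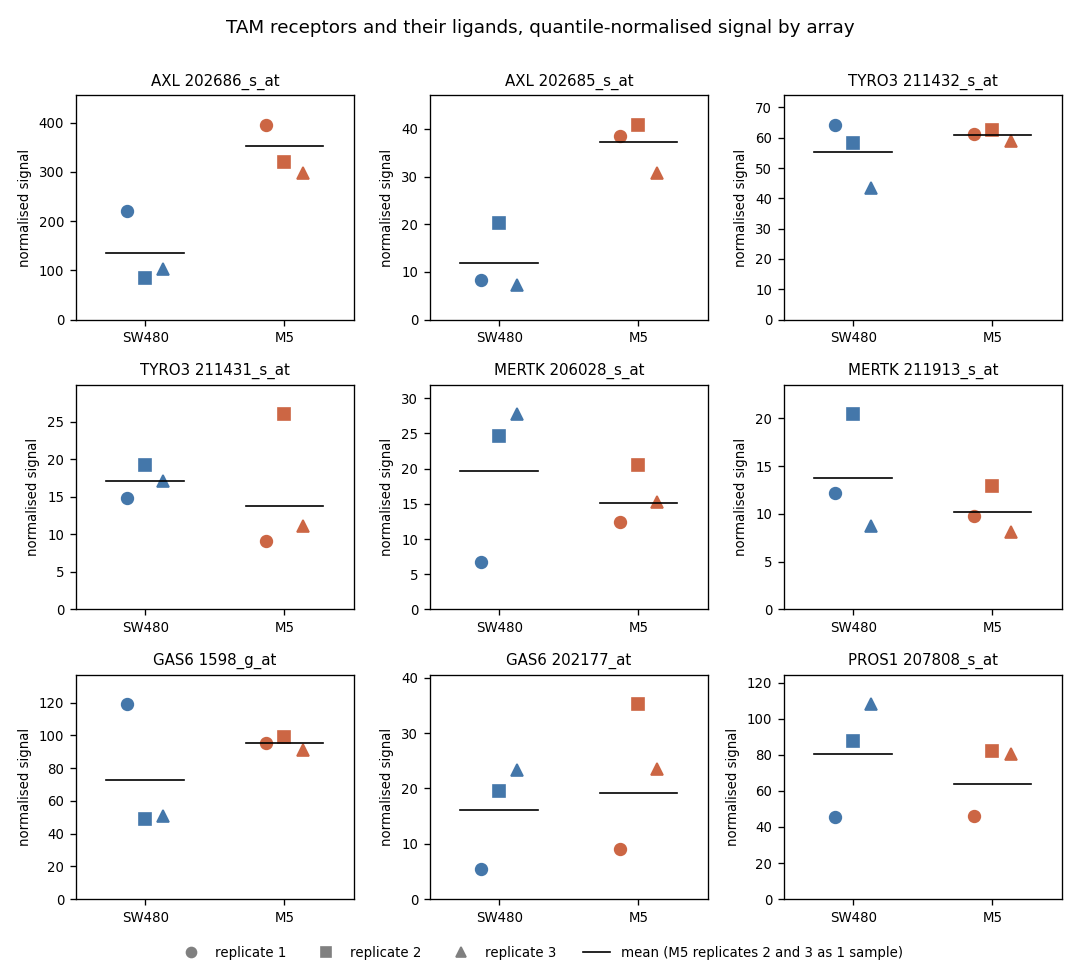
Quantile-normalised signal (vertical axes, linear, from 0) of the TAM receptors and ligands on the 3 SW480 and 3 M5 arrays, with a panel for each probe set that passed the filter, a marker shape for each replicate number and a line at the group mean (M5 replicates 2 and 3 as 1 sample). The groups are apart in both AXL panels, at 85.2 to 221 against 297 to 396 for 202686_s_at, and overlap in the other panels.

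MET, like TYRO3, had kept probe sets with fold changes of opposite sign. In the array maker's naming, an ending in _x marks probe sets with probes that may also bind other sequences, and an ending in _s those with probes shared by several transcripts, often of 1 gene. By 203510_at, which has neither mark, signals were 669, 1358 and 1086 on the SW480 arrays and 865, 609 and 588 on the M5 arrays. M5 replicates 2 and 3 were the lowest and SW480 replicates 2 and 3 the highest, with both replicates numbered 1 in between. The SW480 mean was 1038 ± 347 (SD, n = 3) and the M5 mean 732 ± 188 (SD, n = 2). The log2 fold change was -0.56 (SE 0.26, 95% interval -1.12 to 0.01, limma adjusted p = 0.497). The difference was 0.37 between the replicates numbered 1 and -1.02 between the brighter arrays.

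By 213816_s_at, MET signals were 66.7, 47.8 and 44.0 on the SW480 arrays and 73.2, 105 and 95.8 on the M5 arrays. Here every M5 array was above every SW480 array, although M5 replicate 1 and SW480 replicate 1 were close. The log2 fold change was 0.78 (SE 0.29, 95% interval 0.14 to 1.42, limma adjusted p = 0.421). The remaining probe sets gave ranges of 149 to 221 in SW480 and 130 to 187 in M5 (211599_x_at) and of 89.2 to 134 and 77.7 to 116 (213807_x_at). Their log2 fold changes were -0.19 (95% interval -0.73 to 0.35) and -0.13 (-0.72 to 0.47), and they correlated with each other at r = 0.95 over the 6 arrays. In contrast, 213816_s_at correlated with 203510_at at r = -0.89.

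The log2 ratio of 213816_s_at to 203510_at within an array was -3.29, -4.78 and -4.57 on the SW480 arrays and -3.53, -2.51 and -2.60 on the M5 arrays. The SW480 and M5 ranges overlapped at the replicates numbered 1. This ratio was looked at after the opposite directions were seen and is given with no test. The sources used here do not say which part of the MET transcript each probe set reads, so a single direction for MET cannot be given.

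MST1R, the receptor of macrophage-stimulating protein, had signals of 67.3, 58.8 and 58.8 in SW480 and of 85.0, 54.5 and 51.1 in M5. Except for M5 replicate 1 the arrays lay close together. The log2 fold change was 0.01 (95% interval -0.64 to 0.66, limma adjusted p = 0.993), so a difference of over 2-fold lay outside the interval for this probe set.

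The genes around ligand activation were next. HGFAC, which encodes a serum protease made mainly in the liver, did not pass the filter, with signals of 0.967, 14.0 and 1.83 in SW480 and 3.95, 3.45 and 1.83 in M5. The table holds no detection calls, so its presence cannot be judged. ST14, which encodes the epithelial protease matriptase, had signals of 177, 188 and 187 in SW480 and of 139, 206 and 187 in M5 by 202005_at. The SW480 arrays were nearly equal and lay inside the M5 range, with a log2 fold change of -0.07 (95% interval -0.57 to 0.43, limma adjusted p = 0.941). A second ST14 probe set, 216905_s_at, gave 94.0 to 142 in SW480 and 85.0 to 119 in M5, with a log2 fold change of -0.16 (95% interval -0.74 to 0.42). Both intervals leave out a 2-fold difference, in the fit that counts M5 replicates 2 and 3 separately. The third, 216906_at, was under the filter, with signals of at most 7.05.

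SPINT1, which encodes the matriptase and HGFAC inhibitor HAI-1, had signals of 347, 233 and 181 on the SW480 arrays and of 163, 130 and 164 on the M5 arrays by 202826_at. All M5 arrays lay below all SW480 arrays, with SW480 replicate 3 nearest to M5. The SW480 mean was 254 ± 85.1 (SD, n = 3), the M5 mean 155 ± 11.2 (SD, n = 2), and the log2 fold change was -0.69 (SE 0.27, 95% interval -1.27 to -0.10, limma adjusted p = 0.434). It was -1.09 between the replicates numbered 1 and -0.49 between the brighter arrays. The second probe set, 235546_at, varied too much to compare, with 24.8, 1.28 and 21.7 in SW480 and 1.97, 17.9 and 22.3 in M5 and a log2 fold change of -0.03 (95% interval -2.07 to 2.0).

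**Figure D3:**
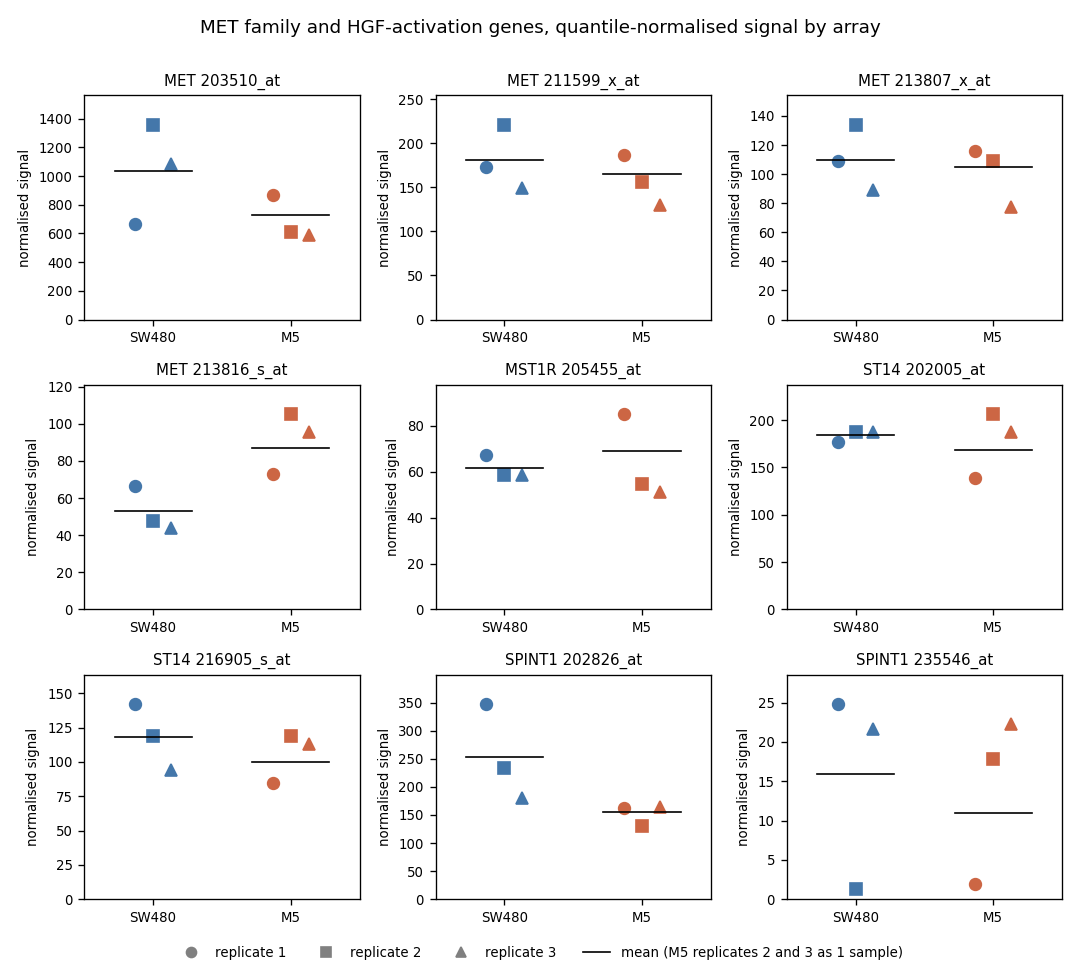
Quantile-normalised signal (vertical axes, linear, from 0) of MET, MST1R, ST14 and SPINT1 on the 3 SW480 and 3 M5 arrays, with a panel for each probe set that passed the filter, a marker shape for each replicate number and a line at the group mean (M5 replicates 2 and 3 as 1 sample). MET 213816_s_at is higher on all M5 arrays (73.2 to 105 against 44.0 to 66.7), SPINT1 202826_at is lower on all of them (130 to 164 against 181 to 347), and the groups overlap in the other panels.

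The dimmest and the brighter arrays were set against each other for all members. Of the 18 kept probe sets, 7 had the same sign between the replicates numbered 1 as between replicates 2 and 3. The share over all kept probe sets was not counted, so this is not a result about the members. Without the replicates numbered 1, limma called 3 member probe sets higher in M5 and 1 lower, where 3.63% of all kept probe sets were called higher and 4.23% lower. The higher ones were AXL 202686_s_at (log2 fold change 1.72, limma adjusted p = 0.00193), GAS6 1598_g_at (0.93, limma adjusted p = 0.0427) and MET 213816_s_at (1.12, limma adjusted p = 0.0222). The lower one was MET 203510_at (-1.02, limma adjusted p = 0.00619). Of these 4, AXL and MET 213816_s_at kept their sign on the arrays left out (0.84 and 0.13), and GAS6 and MET 203510_at did not (-0.31 and 0.37). In that fit M5 is represented by the replicates that were nearly alike on bright probe sets. The part of array brightness in these differences was not tested.

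**Figure D4:**
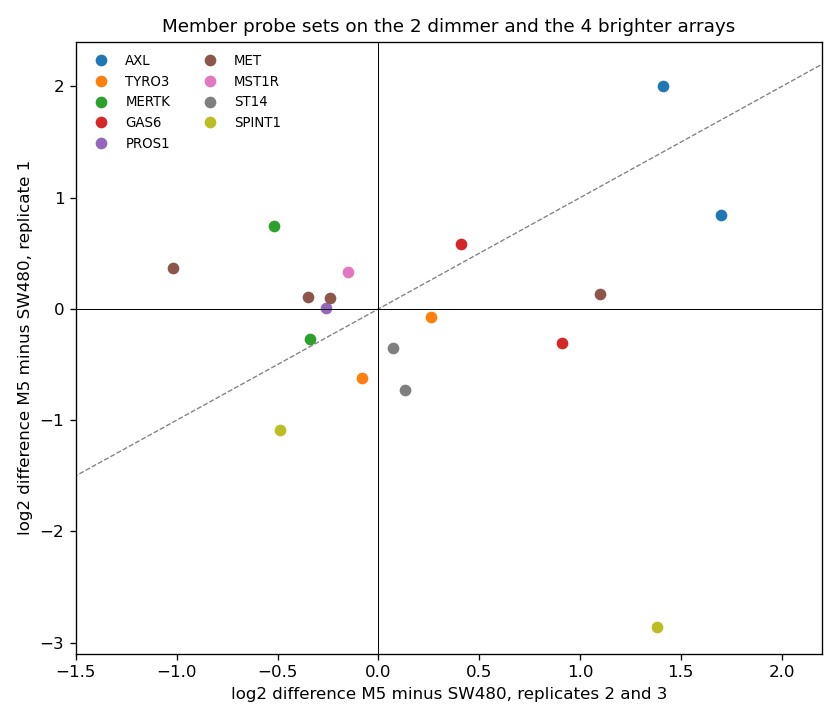
Log2 difference of M5 minus SW480 between the brighter arrays, replicates 2 and 3 (horizontal axis), and between the dimmest arrays, replicate 1 of each (vertical axis), for the 18 member probe sets, with a dashed line where both are equal. The AXL points lie at 1.70 and 0.84 and at 1.41 and 2.0, while MET 203510_at (-1.02 and 0.37) and GAS6 1598_g_at (0.91 and -0.31) change sign.

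For AXL and MET, the 250 bases before their first annotated starts are shown from RefSeq (GRCh38.p14), both on the plus strand. Capitals mark matches on either strand to GGGCGG, the GC box that SP1 and related factors bind, to TGANTCA, the AP-1 site, or to GGAATG, a TEAD site.
AXL, chr19:41218973-41219222: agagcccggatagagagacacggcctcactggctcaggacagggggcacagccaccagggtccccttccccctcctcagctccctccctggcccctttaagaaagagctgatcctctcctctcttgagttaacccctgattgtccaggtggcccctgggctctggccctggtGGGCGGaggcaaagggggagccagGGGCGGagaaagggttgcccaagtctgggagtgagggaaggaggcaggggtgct
MET, chr7:116671946-116672195: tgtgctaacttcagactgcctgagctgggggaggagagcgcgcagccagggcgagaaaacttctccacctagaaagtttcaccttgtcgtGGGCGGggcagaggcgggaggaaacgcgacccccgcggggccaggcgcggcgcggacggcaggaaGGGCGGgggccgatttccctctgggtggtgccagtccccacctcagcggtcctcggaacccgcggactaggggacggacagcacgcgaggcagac
Each window held 2 GC boxes and no match to the other motifs, and the matches did not overlap. GC boxes were not particular to these receptors. Windows before the first annotated start held 3 for TYRO3, GAS6 and SPINT1, 4 for MERTK and MST1R, 2 for PROS1 and 0 for HGFAC. A GC box occurs in 42.6% of 35116 such windows, the AP-1 letters in 6.6% and the TEAD letters in 11.9%. A second annotated AXL start, with its window at chr19:41226505-41226754, held 1 match to the TEAD letters and no GC box.

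Among 19 transcription factors with reported roles at MET or AXL, all with a kept probe set, 0 passed the adjusted threshold in limma, with a median log2 fold change of -0.03. Of all 14243 genes with a kept probe set, limma called only 8 higher and 6 lower in M5, and their median was -0.01. A count of 0 was therefore likely for any short list. It says little about this list, those below or the marker lists above. The 4 transcription factor genes with the smallest p were TEAD1, HIF1A, ETS1 and YAP1. TEAD1, a DNA-binding partner of the co-activator YAP1, had signals of 213, 298 and 191 in SW480 and of 132, 84.0 and 75.6 in M5, below on every array (-1.27 on the log2 scale, SE 0.28, limma adjusted p = 0.221). YAP1 itself had 266, 552 and 440 in SW480 and 286, 216 and 205 in M5, overlapping at replicate 1 (-0.78, limma adjusted p = 0.396). HIF1A, which encodes the oxygen-regulated factor of the hypoxia response, was at 1294 to 1669 in SW480 and 887 to 969 in M5 (-0.62, limma adjusted p = 0.286). ETS1 had 112, 19.4 and 41.7 in SW480 and 112, 176 and 168 in M5 (1.68, limma adjusted p = 0.334), with a difference of -0.01 between the replicates numbered 1. MACC1, known as an activator of MET transcription in colon cancer, had signals of 18.1 to 39.7 in SW480 and of 12.4 to 32.1 in M5 (-0.28, 95% interval -1.28 to 0.73).

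Of 14 genes of HGF and MSP activation, 12 were kept and 0 passed in limma, with a median log2 fold change of 0.22. For HGF, 4 of 5 probe sets were under the filter, and the fifth gave 18.6, 3.38 and 6.60 in SW480 and 37.4, 6.07 and 11.8 in M5. Of those under the filter, 210755_at (5.38 to 6.83 in SW480, 0.467 to 5.13 in M5) lay below on every M5 array. So did 210997_at (3.95 to 7.33 and 0.233 to 1.77), while the others overlapped, so no single direction can be given for HGF. MST1 had 2 kept probe sets, both marked _x. By 205614_x_at, the brighter, it was at 10.0 to 36.0 in SW480 and 15 to 41.8 in M5. By 216320_x_at it was at 27.0, 31.4 and 41.2 in SW480 and 10.9, 21.4 and 25.9 in M5, below on every array, so no single direction can be given. HPN, which encodes hepsin, a membrane protease that cuts both precursors, had 9.40, 14.3 and 14.6 in SW480 and 68.1, 20 and 25.1 in M5, a log2 difference of 1.27 (SE 0.49, limma adjusted p = 0.433). Its difference was 2.65 between the replicates numbered 1 and 0.58 between the brighter arrays. PLAU, the urokinase gene, had 352, 106 and 329 in SW480 and 365, 376 and 408 in M5 (0.72, limma adjusted p = 0.551). TMPRSS13 (0.86) and PLAT (-0.67), genes of other serine proteases, had limma adjusted p of 0.620 and 0.629.

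Of 22 MET surface partners and turnover genes, 20 were kept and 0 passed in limma, with a median log2 fold change of -0.09. TNS4, a tensin gene whose product binds MET and keeps it at the surface, had 41.0, 35.8 and 25 in SW480 and 42.6, 86.8 and 94.0 in M5 (log2 fold change 1.04, limma adjusted p = 0.402). LRIG1, whose product lowers the level of receptor kinases such as MET, had 66.4, 29.2 and 30.3 in SW480 and 19.0, 12 and 20.1 in M5, below on every array (-1.15, SE 0.42, limma adjusted p = 0.412). ITGA6, an integrin subunit gene (1.01), and PTPN1, a phosphatase gene (0.77), both had a limma adjusted p of 0.438.

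Of 34 adaptors and signalling genes, 30 were kept and 0 passed in limma, with a median log2 fold change of -0.07. SOS1, an exchange factor that loads RAS, had 73.5, 125 and 101 in SW480 and 67.5, 27.3 and 27.7 in M5, a log2 difference of -1.35 (SE 0.38, limma adjusted p = 0.314), with little difference between the replicates numbered 1 (-0.12). PIK3CB, a catalytic subunit of PI 3-kinase, had 134, 176 and 196 in SW480 and 82.9, 111 and 110 in M5, with a like difference in both subsets of arrays (-0.68 and -0.74) and a limma adjusted p of 0.396. PTK2, which encodes focal adhesion kinase (-0.57), and SOCS1, a signalling inhibitor (-0.87), had limma adjusted p of 0.466 and 0.557.

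Of 20 genes of other TAM ligands, vitamin K enzymes and the uptake of dying cells, 15 were kept and 0 passed in limma, with a median log2 fold change of 0.05. ITGAV, the integrin subunit that works with MERTK in uptake, had 302, 334 and 524 in SW480 and 317, 162 and 126 in M5 (log2 fold change -1.0, limma adjusted p = 0.381). VKORC1, the vitamin K reductase gene that carboxylation of GAS6 and protein S depends on, was at 222 to 493 in SW480 and 429 to 475 in M5 (0.47, limma adjusted p = 0.580). LGALS3, which encodes galectin-3, a reported MERTK ligand, was at 1851 to 2693 in SW480 and 2399 to 2740 in M5 (0.24, 95% interval -0.12 to 0.59). MFGE8, whose product bridges dying cells to integrins, had a log2 fold change of -0.91 (limma adjusted p = 0.668).

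Of 31 other receptor tyrosine kinases outside the EGF receptor and Eph families, 21 were kept and 0 passed in limma, with a median log2 fold change of -0.16. PTK7, a pseudokinase receptor of Wnt signalling, had 103, 132 and 73.8 in SW480 and 65.9, 41.0 and 57.1 in M5 (log2 fold change -0.88, limma adjusted p = 0.401). The fibroblast growth factor receptor genes FGFR2 (-0.75) and FGFR1 (-0.83) also lay below on every M5 array, with limma adjusted p of 0.467 and 0.474. NTRK3, a neurotrophin receptor gene, was above on every M5 array (0.98, limma adjusted p = 0.557) at signals of 6.70 to 8.53 in SW480 and 11.2 to 30.8 in M5.

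The genes whose log2 signals followed AXL 202686_s_at most closely over the 6 arrays were TXNRD1, FGFRL1, KATNAL1, PPTC7 and HMGA1, with r from 0.994 to 0.998. TXNRD1, which encodes a thioredoxin reductase, had 921, 635 and 661 in SW480 and 1199, 1056 and 1046 in M5. HMGA1, which encodes a chromatin architecture protein, had 1219, 716 and 758 in SW480 and 1550, 1327 and 1326 in M5. For MET 203510_at the closest were SEC23B, PLA2G12A, IPO7, PANK3 and ANKFY1, with r from 0.993 to 0.999. IPO7, an importin gene, had 484, 690 and 637 in SW480 and 563, 473 and 459 in M5. These r were the highest among 32768 probe sets over 6 arrays that share their brightness, and describe the pattern only.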

How the data were processed

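The authors deposited 1 intensity per Affymetrix U133 Plus 2.0 probe set and array on a linear scale, made with GCOS 1.4 per the submitters' processing notes. No source used here gives its settings. The 6 arrays were quantile normalised and taken as log2(signal + 1.7), 1.7 being the 20th percentile of all deposited intensities, so fold changes of low signals are understated. The 62 control probe sets and the 40% with the lowest mean log2 signal were not tested. M5 was compared with SW480 in limma 3.58.1 (R 4.3.3, lmFit and eBayes with intensity trend, two-sided), with Benjamini-Hochberg adjustment over 32768 probe sets and a threshold of 0.05. Genes were named from probe sets with 1 symbol in the platform annotation of 2016, and all 10 member symbols matched RefSeq by gene ID. Every member probe set is given. Other genes stand by their brightest kept probe set: of each pathway list those past the threshold, or else the 4 with the smallest p, with HGF, MST1, LGALS3 and MACC1 in any case, and the 5 most correlated with AXL and with MET. The members and lists were chosen with earlier results of these data known. The fit was tested on simulated data with known changes. Alternatives changed the scaling, pseudocount (0.425 and 6.8), filter (none and 60%), trend, blocks and arrays used. Figures were drawn with matplotlib 3.10.9.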

Additional observations from a re-analysis of the deposited data

How the results depend on the processing

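In 18 alternatives, both AXL probe sets, GAS6 1598_g_at, MET 203510_at, 211599_x_at and 213816_s_at and SPINT1 202826_at kept their sign. For AXL, MET 213816_s_at and SPINT1 202826_at, whose groups do not overlap, leaving out arrays could hardly change it. Member probe sets called were 0 higher and 0 lower over 6 arrays, 1 and 0 with the dim-array block, and 3 and 1 without the dimmer pair. Leaving out 1 array in turn gave 0 to 1 higher (AXL, without SW480 replicate 1) and 0 lower. Over all probe sets 13 were higher and 11 lower. The counts were 48 and 32 with the dim-array block, 1191 and 1387 without the dimmer pair, and 1 and 4 with M5 replicates 2 and 3 averaged. They were 0 and 1 without trend and 18 and 21 with no filter. No scaling gave 6 lower, and leaving out 1 array 1 to 165 higher and 3 to 213 lower. The replicate block gave 18 lower and changed no member's call. Over kept probe sets, equal numbers did not clearly pair the samples (r of deviations 0.11, 0.02 and 0.07). Over bright probe sets, however, the replicates numbered 1 correlated with each other at 0.955, more than with their own groups. SW480 replicate 1 correlated at 0.911 with SW480 replicates 2 and 3, and M5 replicate 1 at 0.935 and 0.933 with M5 replicates 2 and 3.

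Values that changed sign were at most 0.23 in size, except those of SPINT1 235546_at. MST1R was -0.02 with no scaling, -0.14 with median centring and -0.15 without the dimmer pair. ST14 202005_at and 216905_s_at were 0.07 and 0.13 without the dimmer pair. SPINT1 235546_at was 0.19 with no scaling, 0.07 with median centring, 0.02 with the smaller pseudocount and 1.46 without the dimmer pair. Leaving out 1 array gave -0.01 to 0.27 and -0.67 to 0.01 for TYRO3 211432_s_at and 211431_s_at, -0.69 to 0.23 for MERTK 206028_s_at and -0.10 to 0.98 for GAS6 202177_at. It gave -0.53 to 0.10 for PROS1, -0.27 to 0.05 for MET 213807_x_at, -0.22 to 0.14 for MST1R, -0.19 to 0.09 for ST14 202005_at and -1.05 to 0.84 for SPINT1 235546_at. The cause was not tested. Without detection calls, signals near the pseudocount, such as HGFAC, set no fold.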
